A study of Mus musculus with 6 samples.

Results

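Hmgcs1, Idi1, Fdps, Sqle, Cyp51, Sc5d, Insig1 and Srebf2 are 8 genes of cholesterol synthesis and of its control by SREBP2, chosen by name with earlier results of these data known. All 8 were found among the 12402 genes whose name could be restored to a row of the deposited table, which has 22700 rows. RNA of the mucosa of the middle small intestine of single mice was read in 50 bp single-end runs, in 3 libraries of alk-SMase knockout (KO) mice (K79S, K82S, K86S) and 3 of wild type (WT) mice (W83S, W89S, W90S). The study names C57BL/6 mice where it describes the gene that was knocked out, and does not state the strain of each group. All mice ate standard pellets, and no treatment is described. The KO mice carry a Cre-loxP deletion of exon 2 of Enpp7, the gene of alkaline sphingomyelinase, and its loss puts the later exons out of frame. The KO is not described as limited to 1 tissue, and the age of the mice was not given in the sources used here. Alk-SMase hydrolyses dietary sphingomyelin in the gut lumen, and sphingomyelin binds cholesterol in membranes and in the diet. The comparison of KO with WT asks here whether RNA of the cholesterol synthesis genes differed without this enzyme.

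Cholesterol is made from acetyl-CoA through the mevalonate pathway. Its early enzymes make mevalonate and isoprenoid units, squalene synthase and squalene epoxidase commit these to sterols, and a last series of enzymes turns lanosterol into cholesterol. SREBP2, the product of Srebf2, is a membrane-bound transcription factor of the endoplasmic reticulum. When membrane sterol is low, SCAP carries it to the Golgi, where 2 proteases release its active part, which enters the nucleus and switches on the genes of the pathway. When sterol is high, INSIG proteins hold SCAP back. Enterocytes both absorb cholesterol and make it, so the pathway in this tissue is known to respond to sterol supply.

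The 6 libraries were not alike, and the values below are to be read with these differences in view. Summed FPKM, the deposited unit (fragments scaled to the length of the gene and the reads mapped in each library), ranged from 393152 to 495362, and 11680 to 12674 rows stood at an FPKM of at least 1. The deleted exon 2 has 146 of the 1370 or 1923 bases of the annotated Enpp7 transcripts, so reads from the other exons remain in whole-gene FPKM, which does not check the genotype. It was 129 in K82S and 605 and 669.7 in the other KO libraries K79S and K86S, with 406, 667 and 495 in W83S, W89S and W90S. K82S stood apart in further ways. All 8 enterocyte markers were present in every library, and K82S was lowest in 5 of them. Their summed FPKM, set mainly by Fabp2 and Apoa4, was 10885 in K82S against 15175 to 21517 elsewhere, whereas Vil1, Apob and Cdhr5 were not lowest there. The sum of 4 B and plasma cell markers was 241 in K82S against 67.4 to 132, and that of 6 T cell markers was 215 against 69.1 to 153. W83S carried gastric RNA: 5 stomach markers made up 4.85% of its summed FPKM and at most 0.000336% of that of any other library. In bulk tissue, fewer cells of a type and less RNA per cell cannot be told apart.

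Hmgcs1 encodes HMG-CoA synthase of the cytosol, an early enzyme of the mevalonate pathway, and it lies on chromosome 13 of mm10 (chr13:119690379-119708260, plus strand; GENCODE M21 annotation, as for the genes below). Its FPKM was 35.3, 97.1 and 16.7 in K79S, K82S and K86S and 30.6, 59.8 and 23.6 in W83S, W89S and W90S. The highest and the lowest value were both of KO mice, with all WT mice between them. The means were 49.7 ± 42.1 (SD, n = 3) in KO and 38.0 ± 19.2 (SD, n = 3) in WT. On the log2(FPKM + 1) scale KO minus WT was 0.14 (SE 0.65, 95% confidence interval -1.41 to 1.69, adjusted p = 0.939, limma).

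Idi1 encodes the isomerase of isopentenyl diphosphate, the 5-carbon unit of all isoprenoids (chr13:8885501-8892451, plus strand). Its FPKM was 4.58, 16.1 and 3.29 in K79S, K82S and K86S and 6.89, 10.7 and 1.02 in W83S, W89S and W90S. K82S and W89S were again highest in their groups, but the lowest value was that of W90S, a WT library. The means of 7.99 ± 7.05 in KO and 6.20 ± 4.87 in WT (SD, n = 3 each) differed by less than either SD. The log2 difference was 0.38 (SE 0.77, interval -1.46 to 2.22, adjusted p = 0.856, limma). Without W90S it was -0.37, and with the pseudogene copies described below added it was 0.03.

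Fdps encodes farnesyl diphosphate synthase, whose product feeds sterols, ubiquinone, dolichol and prenylated proteins (chr3:89093588-89101959, minus strand). FPKM was 8.84, 26.3 and 5.42 in K79S, K82S and K86S and 10.7, 18.5 and 8.32 in W83S, W89S and W90S. Outside K82S, each KO value was below 2 or 3 of the WT values. The means were 13.5 ± 11.2 in KO and 12.5 ± 5.30 in WT (SD, n = 3 each), and the log2 difference was -0.10 (SE 0.55, interval -1.42 to 1.22, adjusted p = 0.948, limma). The KO mean was the higher on the linear scale and the lower on the log2 scale, since K82S weighs more in the first.

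Sqle encodes squalene epoxidase, which adds the oxygen that becomes the sterol hydroxyl group and is a rate-limiting step of the sterol branch (chr15:59315077-59331192, plus strand). Its FPKM was 15.3, 38.9 and 4.41 in K79S, K82S and K86S against 8.14, 19.5 and 6.07 in W83S, W89S and W90S. K79S lay above 2 of the 3 WT libraries and K86S below all 3. With means of 19.5 ± 17.6 in KO and 11.2 ± 7.22 in WT (SD, n = 3 each), Sqle had the largest log2 difference of the 8, 0.47, with an SE of 0.75 (interval -1.32 to 2.26, adjusted p = 0.810, limma).

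Cyp51 encodes lanosterol 14-alpha-demethylase, the cytochrome P450 of the pathway (chr5:4081145-4104746, minus strand). FPKM was 12.5, 51.6 and 8.05 in K79S, K82S and K86S and 17.1, 29.6 and 13.3 in W83S, W89S and W90S. K79S and K86S were below all 3 WT libraries, while K82S was above all of them. The means were 24.0 ± 24.0 in KO and 20.0 ± 8.53 in WT (SD, n = 3 each), with a log2 difference of -0.10 (SE 0.66, interval -1.68 to 1.47, adjusted p = 0.955, limma).

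Sc5d encodes sterol C5-desaturase, which works near the end of the pathway (chr9:42251595-42264256, minus strand). It was steady, with FPKM values of 28.5, 33.2 and 31.3 in K79S, K82S and K86S and of 28.2, 31.0 and 30.7 in W83S, W89S and W90S. The highest value was 1.18 times the lowest. KO and WT means were 31.0 ± 2.35 and 30.0 ± 1.55 (SD, n = 3 each), and the log2 difference of 0.05 had the narrowest interval of the 8, -0.29 to 0.38 (SE 0.14, adjusted p = 0.905, limma).

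Insig1 and Srebf2 are the regulators among the 8. Insig1, an endoplasmic reticulum protein that retains SCAP and is itself induced by SREBP2, lies at chr5:28071363-28078662 (plus strand). Its FPKM was 20.5, 35.4 and 17.3 in K79S, K82S and K86S and 19.7, 23.2 and 20.7 in W83S, W89S and W90S. Its WT values lay close together and K82S alone stood well above them. The means of 24.4 ± 9.66 and 21.2 ± 1.84 (SD, n = 3 each) gave a log2 difference of 0.13 (SE 0.27, interval -0.51 to 0.77, adjusted p = 0.855, limma). Srebf2 (chr15:82147181-82205379, plus strand) had FPKM values of 22.0, 21.5 and 13.4 in K79S, K82S and K86S and of 16.3, 26.5 and 16.7 in W83S, W89S and W90S. It was the only one of the 8 in which K82S was not the highest library. Means of 18.9 ± 4.84 in KO and 19.8 ± 5.81 in WT (SD, n = 3 each) gave a log2 difference of -0.06 (SE 0.27, interval -0.71 to 0.59, adjusted p = 0.938, limma).

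**Figure D1:**
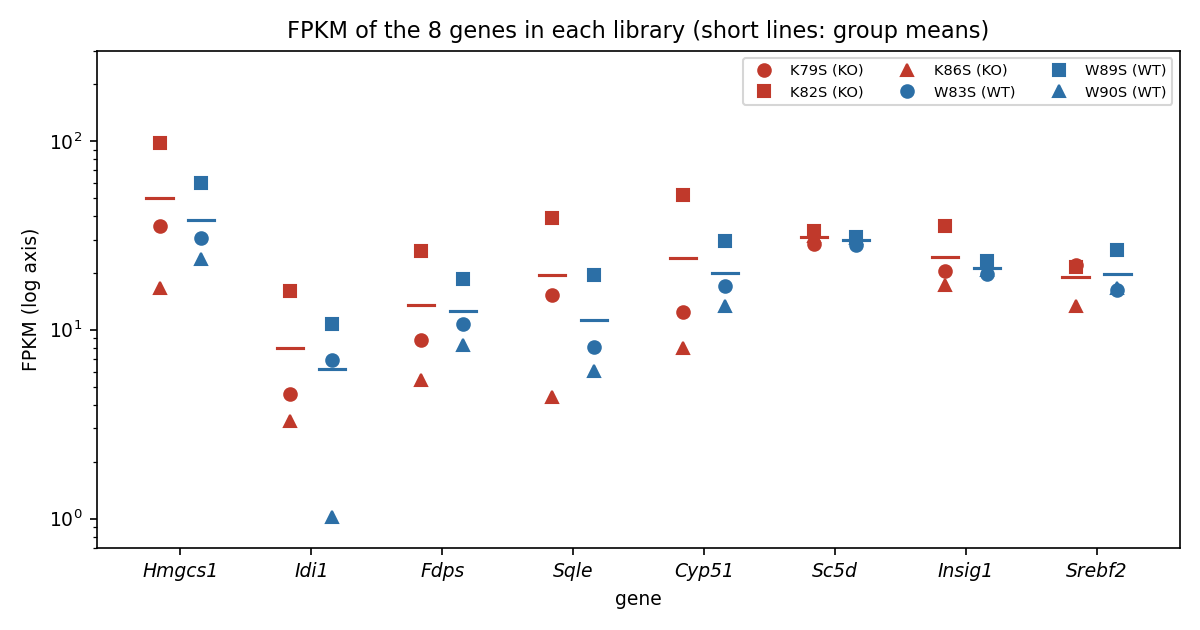
FPKM (log axis) of the 8 genes in each library, KO in red and WT in blue, with group means as short lines. K82S and W89S (squares) top their groups in 7 of the 8 genes, and Sc5d is nearly level.

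Between genotypes, 0 of the 8 genes passed an adjusted p under 0.05 with a fold change above 1.5 or below 2/3. Over all 13089 rows tested, 1 row passed, which is 0.00764%. That row was Gm29008, named here after its values were seen, which is listed at 0 in the 3 KO libraries and at 4.26, 4.48 and 4.75 FPKM in the WT libraries. At an unadjusted p under 0.05 the count was also 0 of 8, against 12.5% of all rows, and unadjusted p-values of the 8 ran from 0.552 to 0.881 (limma). The KO and WT values overlapped in all 8 genes, whereas 17.2% of all rows showed no overlap between the groups. The exact two-sided permutation test of 3 against 3, whose smallest possible p is 0.1, gave p-values from 0.5 to 1. The difference was above 0 in 5 genes and below 0 in 3, with a median of 0.09 against -0.06 over all rows. Scaling to equal library sums moved the median of all rows by 0.14 and put all 8 genes above 0. For Idi1, Sqle, Cyp51, Hmgcs1 and Fdps the intervals reach past 1 on the log2 scale in both directions, so doubled and halved levels both lie inside them, while the interval of Sc5d ends at 0.38.

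**Figure D2:**
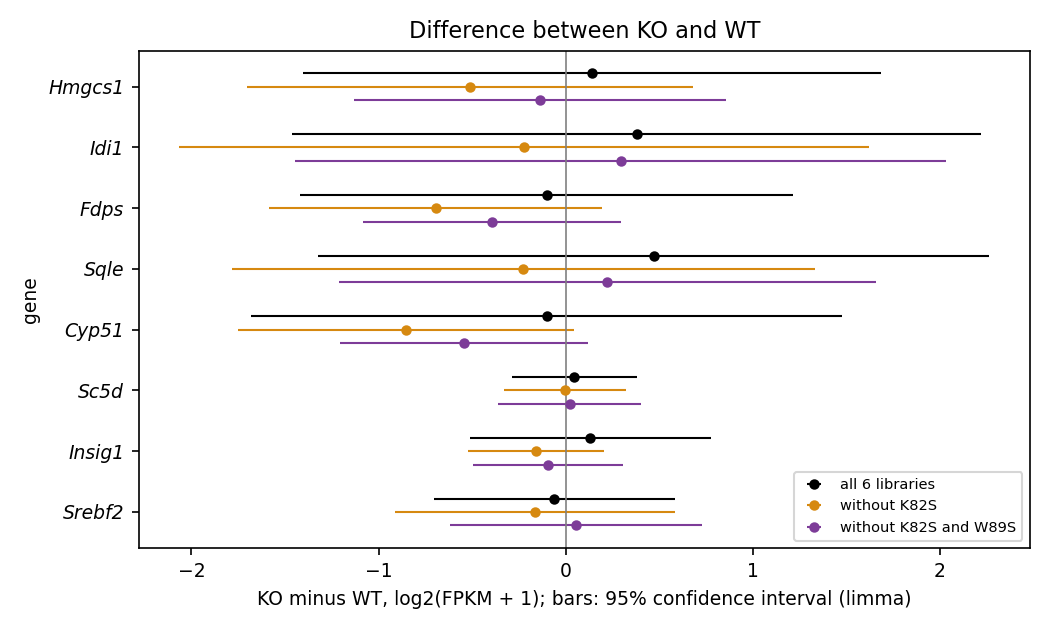
Difference between KO and WT in log2(FPKM + 1) for each gene, with the 95% confidence interval of the limma fit, for all 6 libraries (black), without K82S (orange) and without K82S and W89S (purple). Every interval crosses 0, and without K82S all 8 points lie below 0.

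In 5 of the 8 genes single mice stood several times apart. From the lowest to the highest library, FPKM differed 15.8 times for Idi1, 8.83 times for Sqle, 6.41 times for Cyp51, 5.81 times for Hmgcs1 and 4.85 times for Fdps. On the log2(FPKM + 1) scale these spreads were 3.08, 2.88, 2.54, 2.47 and 2.09. A spread as wide as that of Fdps was found in 4.65% of all rows tested and one as wide as that of Idi1 in 1.68%. The lowest value of Idi1 was that of W90S, and within the KO libraries alone Idi1 differed 4.89 times. With its pseudogene copies added the spread was 3.87 times, or 1.85 on the log2 scale. Of these copies, Gm35570 was nearly level, at 3.14 to 4.40 FPKM, which by itself narrows the spread of the sum. Insig1 (0.99) and Srebf2 (0.94) were nearer to the middle, with 30.4% and 33.2% of rows at least as wide, and Sc5d (0.23) was among the narrowest, with 97.3% of rows at least as wide. The median spread was 2.28 over the 8 genes and 0.71 over all rows.

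**Figure D3:**
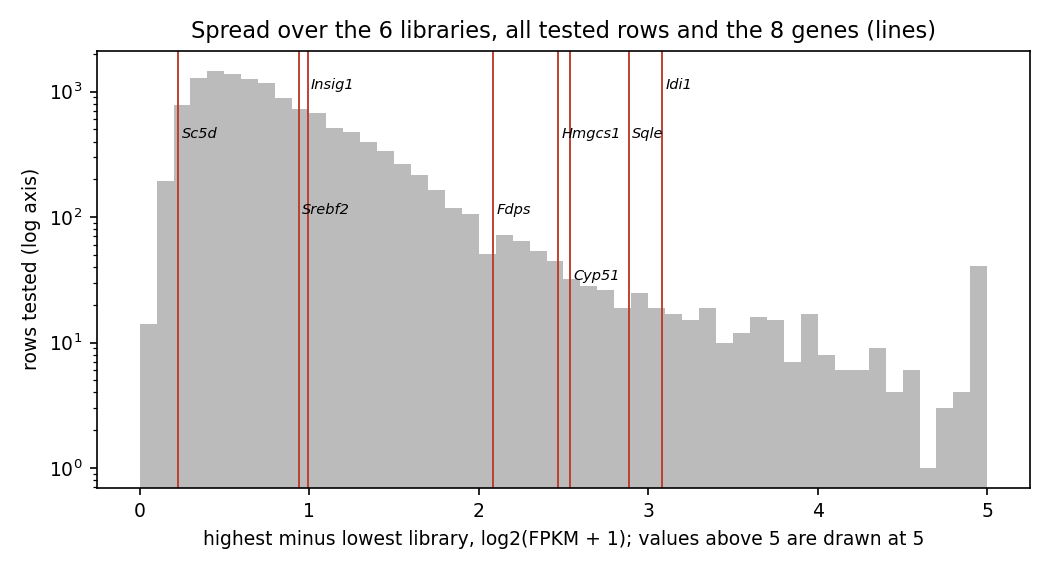
Histogram of the spread of all 13089 rows tested over the 6 libraries (highest minus lowest log2(FPKM + 1), both groups together, log count axis), with the 8 genes as lines. Idi1, Sqle, Cyp51, Hmgcs1 and Fdps stand in the right tail and Sc5d at the left end.

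The libraries came in nearly the same order in most of these genes. K82S was highest in 7 of 8 genes and in 22.1% of all rows, and K82S and W89S were the top pair in 6 of 8 and in 12.4% of all rows. K86S was lowest in 6 of 8, against 24.6% of all rows. Centred on its own mean and averaged over the 8 genes, the log2 level was -0.10, 0.99 and -0.72 in K79S, K82S and K86S and -0.14, 0.51 and -0.53 in W83S, W89S and W90S. Each group thus held 1 high library and at least 1 low one. Over all rows the same average stayed between -0.12 and 0.09. In W90S, Idi1 was at -1.69 and the other genes between -0.87 and 0.01, and the Idi1 value is uncertain because of the pseudogene copies described below. The summed FPKM of the 8 genes was 147, 320 and 99.9 in the KO libraries and 138, 219 and 120 in the WT libraries. Fdps followed the averaged profile most closely, with a root mean square difference of 0.17 on the log2 scale, and Hmgcs1 was next with 0.24. Sc5d and Idi1 were farthest from it, at 0.56 and 0.55. The averaged profile includes each gene itself, and the root mean square difference counts the size of the swings as well as their order.

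The direction of the comparison depended on single libraries, high and low. Without K82S, all 8 differences were below 0, from -0.85 for Cyp51 to -0.0024 for Sc5d. Their median was -0.22, against -0.09 over all rows, and adjusted p-values were 0.214 to 0.994 (limma). None of the 8 passed, although 9.28% of all rows did then (51 higher and 1133 lower in KO). Only Cyp51 had no overlap in that fit, with KO lower by a log2 difference of -0.85 (interval -1.75 to 0.05), against 44.2% of all rows with no overlap. Without W89S, all 8 differences were above 0, with a median of 0.20 and a highest value of 0.92 for Sqle. Without K86S, the low KO library, all 8 were above 0 as well, with a median of 0.38 and a highest value of 1.22 for Sqle. Without W90S, 3 were above and 5 below 0, with a median of -0.15. With both K82S and W89S left out, 4 were above and 4 below 0, the median was -0.04, and Cyp51 was still the 1 gene with no overlap, at -0.54 (adjusted p = 0.268, limma), when 57.8% of all rows had none. Without W83S, the library with gastric RNA, 5 were above and 3 below 0, with a median of 0.02. Over all rows the median stayed between -0.09 and -0.05 in each of these fits.

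K82S and W89S, the top pair in 12.4% of all rows, also stood apart in genes that vary along the small intestine. This list was added after values had been seen. Gata4, a transcription factor of the duodenum and jejunum that is absent from the ileum, was lowest in K82S (11.3 FPKM) and next lowest in W89S (25.4), against 34.3 to 47.2 elsewhere. Lct, lactase, which is highest in the jejunum, was likewise lowest in these libraries, at 76.3 and 163 FPKM against 243 to 490. Slc51a and Slc51b, the exporter of bile acids that is highest in the ileum, were highest in K82S, at 885 and 715 FPKM, and next in W89S, at 450 and 404 FPKM. In the other 4 libraries Slc51a was at 169 to 421 FPKM and Slc51b at 121 to 216 FPKM. Enpp7, whose enzyme is highly active in the jejunum by the study's account, was lowest in K82S, at 129 FPKM. In W89S it was 667 FPKM, against 406 to 669.7 FPKM elsewhere. Fabp6 and Slc10a2 of the same list were not analysed here. The position of each sample along the intestine is not given beyond the middle part, and its share in the sterol gene values was not tested. Other cell types were checked by their markers. The sum of 6 crypt proliferation markers, set mainly by Olfm4 and Pcna, was 25.2, 65.1 and 38.8 in the KO libraries. In the WT libraries it was 62.2, 89.6 and 110. All 6 had a difference below 0, with a median of -0.68, and 0 passed. Only Olfm4 had no overlap, against 17.2% of all rows, and only Olfm4 had an unadjusted p under 0.05 (limma), against 12.5%. The 3 smooth muscle markers measured summed to 10.6 to 33.6, with K82S at 13.4. Pancreatic Ctrb1 did not exceed 2.11 FPKM. All 6 T cell markers were higher in every KO than in every WT library and had an unadjusted p under 0.05, and 0 of 6 passed the adjusted threshold (limma), where 17.2% of all rows had no overlap. Whether cell makeup had a part in the sterol gene values was not tested.

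In FPKM, which is per length of gene, the 8 genes stood in the order Hmgcs1 43.8 ± 29.9, Sc5d 30.5 ± 1.87, Insig1 22.8 ± 6.46, Cyp51 22.0 ± 16.2, Srebf2 19.4 ± 4.81, Sqle 15.4 ± 12.9, Fdps 13.0 ± 7.84 and Idi1 7.09 ± 5.51 (mean and SD over 6 libraries). Most neighbours in this order differed by less than their spread. Insig1 and Cyp51 were 0.762 FPKM apart, and Insig1 was the higher in 4 of 6 libraries. Cyp51 was above Srebf2 in 3 of 6 libraries and Sqle above Fdps in 3 of 6, with mean differences of 2.64 and 2.37 FPKM. Only Fdps stood above its next neighbour, Idi1, in all 6 libraries, by a mean of 5.92 FPKM. The FPKM listed for Fdps was 30.5% to 33.1% of the sum of itself and its pseudogene copies described below. For Idi1 this share was 10.6% to 43.4%. The places of these 2 genes in the order are therefore uncertain.

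Of 15 other enzymes of cholesterol synthesis, 14 were measured and 0 passed the threshold. Differences were above 0 in 9 and below 0 in 5, with a lowest value of -0.41 for Lbr and a median of 0.09. Their averaged log2 profile was -0.07, 0.74 and -0.62 in the KO libraries and -0.24, 0.49 and -0.29 in the WT libraries, and K82S and W89S were the top pair in 9 of 14. Mvd, mevalonate diphosphate decarboxylase, went from 5.51 FPKM in K86S to 30.7 in K82S, whereas Ebp, a sterol isomerase, stayed between 20.9 and 33.3. Hsd17b7 was not analysed here. Without K82S, 11 of the 14 were below 0, 3 had no overlap (Acat2, Lbr and Msmo1, all lower in KO), against 44.2% of all rows, and 0 passed. Without W89S, 12 of the 14 were above 0, with a median of 0.33.

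In 4 of 5 SREBP2 targets outside synthesis, K82S was the highest KO and W89S the highest WT library, as in 7 of the 8 genes and 23.6% of all rows. The 5 had a median difference of 0.28, with 3 above 0 and 2 below, and 0 passed. Stard4, a carrier of cholesterol between membranes, was at 25.3 to 40.8 FPKM in KO and 20.1 to 32.5 FPKM in WT. Tmem97, which binds NPC1, gave the only unadjusted p under 0.05 of this list, with 13.1, 22.0 and 11.7 FPKM in KO and 21.2, 23.5 and 25.8 FPKM in WT, a log2 difference of -0.61 (SE 0.24, adjusted p = 0.393, limma). Without K82S its difference of -0.87 passed the threshold (adjusted p = 0.0328, limma), as did 9.28% of all rows, 1133 of them lower in KO. Without both K82S and W89S its adjusted p was 0.0698, and without W89S alone it was 0.541 at a difference of -0.61 (limma).

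In the SREBP machinery, here Scap, Insig2, Mbtps1 and Srebf1, K82S and W89S were the top pair in 0 of 4 genes measured. Of these, 2 were above 0 and 2 below, with a median of 0.08, and 0 passed. Insig2, which like Insig1 retains SCAP, was high in K82S, at 22.5 FPKM against 6.50 to 10.4 in the others. Scap ran from 3.86 to 6.96 FPKM. Srebf1 encodes the SREBP of fatty acid synthesis and is also counted among the LXR targets below. It was at 17.1, 11.3 and 14.2 FPKM in KO and 11.0, 10.8 and 14.1 FPKM in WT. Mbtps2 was not analysed here.

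**Figure D4:**
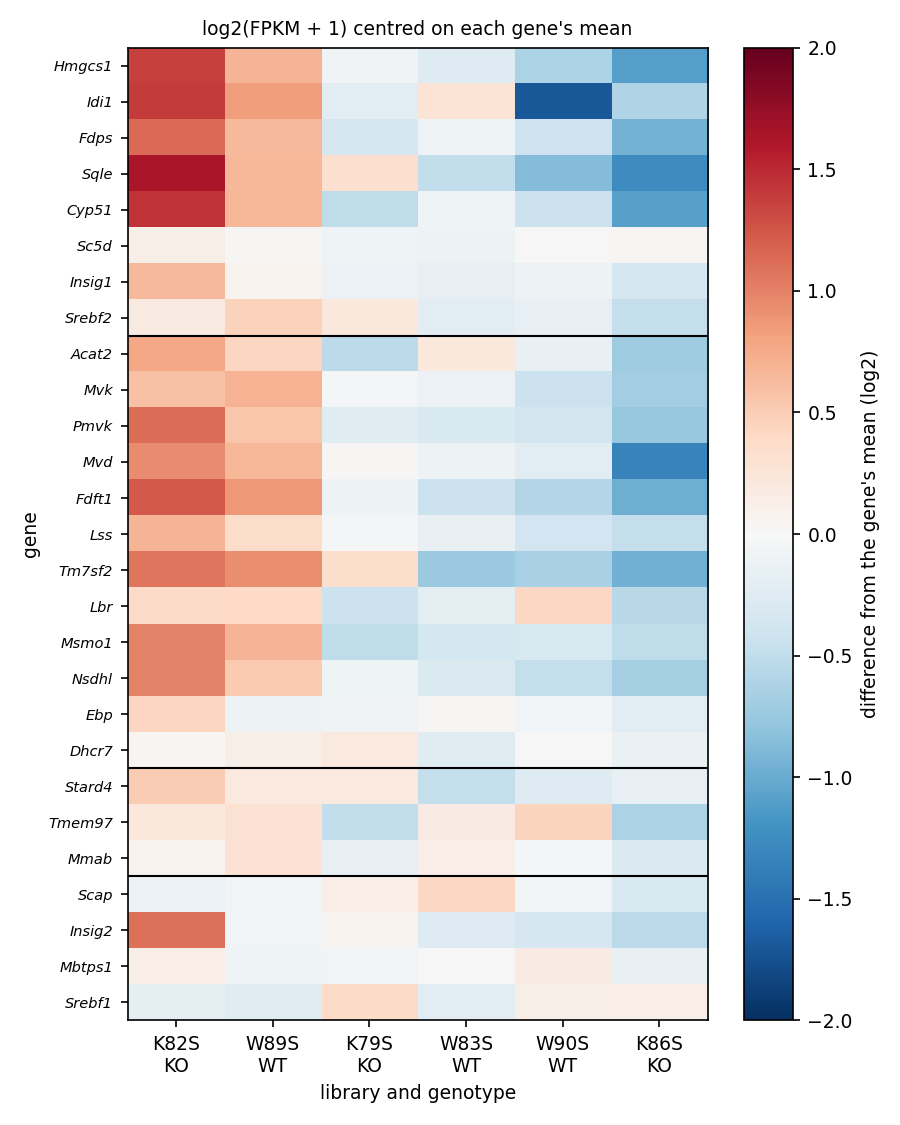
log2(FPKM + 1) centred on each gene's mean for the 8 genes (top block), 12 other cholesterol synthesis enzymes, 3 other SREBP2 targets and the SREBP machinery (bottom block), with libraries ordered by the averaged level of the 8 genes. K82S and W89S are red and K86S blue in most rows of the first 3 blocks, and Sc5d, Dhcr7 and Mbtps1 are pale.

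The neighbouring pathways were counted in the same limma fit. At an unadjusted p under 0.05 stood 0 of 14 other synthesis enzymes, 0 of 4 machinery genes, 1 of 5 SREBP2 targets, 2 of 9 non-sterol genes, 1 of 7 degradation genes, 0 of 10 fatty acid synthesis genes and 0 of 5 LXR targets, against 12.5% of all rows. No overlap between KO and WT was found in 3 of 9 non-sterol genes, 2 of 7 degradation genes and 0 in each of the other pathway lists, against 17.2% of all rows. In the non-sterol branches of the mevalonate pathway (prenylation, dolichol and ubiquinone synthesis), 9 genes had a median difference of -0.0047, with 4 above and 5 below 0, and 0 passed. Coq2, which attaches the ubiquinone side chain, was 4.94, 5.96 and 4.83 FPKM in KO and 8.73, 6.28 and 9.81 FPKM in WT, a log2 difference of -0.56 (SE 0.18, unadjusted p = 0.0198 in limma) with no overlap. Fnta, a subunit of the prenyl transferases, was also lower in every KO library, at 11.3 to 12.2 FPKM against 14.1 to 14.6, as was Pdss2, while Nus1, of dolichol synthesis, overlapped between the groups. The averaged profile of these 9 genes stayed between -0.17 and 0.21. In the degradation of sterol synthesis enzymes, 7 genes had a median of -0.08, with 2 above and 5 below 0, and 0 passed. Ube2g2, an ubiquitin-conjugating enzyme, was lower in every KO than in every WT library, with a log2 difference of -0.64 (SE 0.24, unadjusted p = 0.0318 in limma). March6, the ligase of squalene epoxidase, was at 28.3, 17.0 and 27.1 FPKM in KO and 17.6, 16.3 and 19.0 FPKM in WT. Vcp, the ATPase that extracts such proteins from the membrane, was at 32.8 to 43.3 FPKM in all libraries.

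Fatty acid synthesis genes, of which 10 were measured, had a median of -0.10, with 4 above and 6 below 0, and 0 passed. Their averaged profile, -0.07, 0.64 and -0.65 in KO and -0.11, 0.24 and -0.05 in WT, also peaked in K82S. Scd2, a stearoyl-CoA desaturase, was at 17.9, 53.6 and 6.26 FPKM in KO and 10.6, 28.6 and 5.82 FPKM in WT. Targets of LXR, the receptor of oxysterols that opposes sterol excess, had K82S highest in 0 of 5 genes and lowest in 1, Abca1. Their averaged profile was 0.49, -0.33 and 0.21 in KO and -0.29, -0.15 and 0.07 in WT, with Abca1 at 1.71 FPKM in K82S against 4.42 to 13.0 elsewhere. Of 5 measured, 4 were above 0, the median was 0.22, and 0 passed. Abcg5 and Abcg8, which together form the sterol exporter of the brush border, were at 132 to 177 FPKM and at 43.9 to 78.1 FPKM. Acaca and Abcg1 were not analysed here.

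Genes outside the 8 were ranked by how close their centred profile over the 6 libraries was to the averaged profile of the 8. Among 4529 named genes with a mean FPKM of at least 10, the closest were Sdc1, Pmvk, Fam83e, Aacs and Rnase4, with root mean square differences of 0.12, 0.12, 0.14, 0.15 and 0.16 on the log2 scale. Pmvk is phosphomevalonate kinase of the same pathway, and Aacs is acetoacetyl-CoA synthetase, which supplies acetoacetyl-CoA for lipid synthesis in the cytosol. Sdc1, a cell surface proteoglycan, stood at 34.8, 61.0 and 19.4 FPKM in KO and 27.8, 52.3 and 24.1 FPKM in WT. Of the 8 other cholesterol synthesis enzymes that were ranked, 6 were within the first 100, which is 2.21% of the genes ranked, among them Pmvk, Mvk, Msmo1, Fdft1 and Mvd. Insig2, at rank 33, Acly, at 19, and Fads2, at 25, were there as well. Srebf1 was at rank 3559 and Abcg5 at 3392. All these profiles share the same 6 libraries, so the ranks are a description.

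Fdps and Idi1 have processed pseudogenes, intronless copies of their mRNA elsewhere in the genome, whose 50 bp reads can be identical to theirs. Fdps had 4 such copies aligned over at least 500 bases at 96.1% to 98.9% identity, and the copy with 98.9%, Gm3571, was listed at 10.7, 31.9 and 6.58 FPKM in KO and 13.8, 22.4 and 9.59 FPKM in WT, above Fdps itself in every library. The share of Fdps in the sum of itself and these copies was 30.5% to 33.1% in the 6 libraries. The sum therefore kept the order of Fdps, at 27.1, 81.9 and 16.4 FPKM in KO and 35.2, 56.1 and 25.4 FPKM in WT. Idi1 had 2 copies, 1 of them, Gm13502, identical over 684 bases. Its share of the sum was 34.9%, 43.4% and 34.3% in KO and 40.5%, 39.5% and 10.6% in WT, so W90S stands out. With the copies added, Idi1 in W90S was close to K86S: the sums were 13.1, 37.1 and 9.59 FPKM in KO and 17.0, 27.0 and 9.63 FPKM in WT. The log2 difference of Idi1 was then 0.03 instead of 0.38, and that of Fdps -0.14 instead of -0.10. The FPKM of Fdps and Idi1 alone is therefore uncertain. Outside genes that overlap them, Hmgcs1 and Insig1 had matches of at most 189 bases, and Sqle, Cyp51, Sc5d and Srebf2 had none. Since the handling of strand was not given in the sources used here, reads of Cyp51 and Akap9, of Hmgcs1 and Gm48342 and of Idi1 and Gm48574, which lie on opposite strands of the same place, cannot be told apart where they overlap. Srebf2 holds the microRNA gene Mir33, and Fdps overlaps Gm43738 on the same strand.

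**Figure D5:**
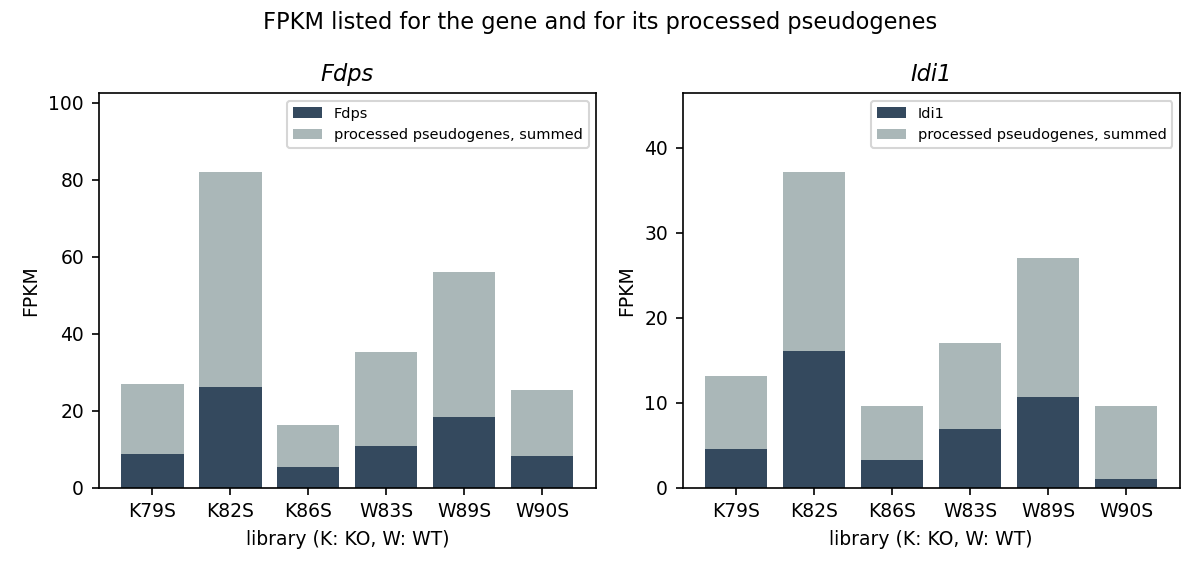
Stacked bars of FPKM for Fdps (left) and Idi1 (right) and for the summed processed pseudogenes of each, per library. The dark share is alike in all libraries for Fdps and is smallest in W90S for Idi1.

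SREBP2 binds sterol regulatory elements, usually beside sites of NF-Y and Sp1, in the promoters of these genes. The promoters are shown because most of the 8 genes were high and low in the same libraries while Sc5d was level. RefSeq sequences (GRCm38.p6, 250 bases before to 50 bases after the start) were found for 6 of the 8; Fdps and Sqle were not in the table. Below are the 150 bases before the start, 5′ to 3′ on the gene's strand, with position -1 as the last base and matches to the motifs in capitals. These stretches are chr13:119690201-119690350 (Hmgcs1, plus), chr5:28071262-28071411 (Insig1, plus), chr13:8885456-8885605 (Idi1, plus), chr5:4104698-4104847 (Cyp51, minus) and chr9:42264301-42264450 (Sc5d, minus). The start used here differs from that of the GENCODE genes above, so the stretches of Insig1, Idi1 and Cyp51 reach into those genes. Srebf2 was counted but its sequence is not printed.
Hmgcs1: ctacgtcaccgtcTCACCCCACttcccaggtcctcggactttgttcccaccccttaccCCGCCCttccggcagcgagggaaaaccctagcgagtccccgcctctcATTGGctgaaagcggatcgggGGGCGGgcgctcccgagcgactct
Insig1: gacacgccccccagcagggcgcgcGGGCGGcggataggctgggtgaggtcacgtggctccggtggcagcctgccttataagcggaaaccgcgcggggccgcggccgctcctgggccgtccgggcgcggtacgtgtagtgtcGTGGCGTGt
Idi1: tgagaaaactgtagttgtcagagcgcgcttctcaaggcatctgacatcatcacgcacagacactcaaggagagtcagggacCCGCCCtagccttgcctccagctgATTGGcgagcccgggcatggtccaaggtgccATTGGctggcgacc
Cyp51: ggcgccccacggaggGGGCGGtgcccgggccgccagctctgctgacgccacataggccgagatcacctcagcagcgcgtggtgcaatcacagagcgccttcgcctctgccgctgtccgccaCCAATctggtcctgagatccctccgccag
Sc5d: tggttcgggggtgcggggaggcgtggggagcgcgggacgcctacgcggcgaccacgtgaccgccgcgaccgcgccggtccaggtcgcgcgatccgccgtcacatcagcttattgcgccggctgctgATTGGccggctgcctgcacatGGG
Both strands were searched for TCACNCCAC and for the looser CACNCCAC, which the first contains, as sterol regulatory elements, for CCAAT (NF-Y, ATTGG on the other strand) and for GGGCGG (Sp1, CCGCCC on the other strand). The stricter pattern was found in 1 of 6, Hmgcs1, from -137 to -129, and in 1.24% of all 32851 promoters of the table. The looser form was in 2 of 6, Hmgcs1 and Insig1 (from -9 to -2, other strand), and in 6.24% of all promoters. CCAAT and GGGCGG were each in 6 of 6, against 37.4% and 35.7% of all promoters. Among 12 other cholesterol synthesis enzymes with a promoter in the table, these counts were 0, 1, 11 and 11. Idi1 and Cyp51, with wide spreads, and Sc5d, with the narrowest, thus all lacked both patterns in this window and all held the other motifs. Only these exact letters were searched, so a promoter without them is not shown to lack a sterol regulatory element. The capitals at the end of the Sc5d sequence are the first bases of a match that runs past the start, from -3 to 3.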

How the data were processed

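RNA of 6 mice was measured, 1 library per mouse by the study's methods. The authors trimmed their reads, aligned them with HISAT2 on the mm10 genome, quantified genes with StringTie and deposited FPKM values. Tool versions, annotation and strand handling were not given in the sources used here. FPKM holds no read counts, so no counting interval was computed, and the read totals that the study lists per library were not used here. All columns were mapped to samples (0 left over).

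Gene IDs in the table stand beside other genes' rows and were restored by rank: the ID beside the nth highest K79S value belongs to about the nth highest W83S value, with small offsets. As a check, rows with at most 6 decimals were taken as genes of 1 GENCODE M21 transcript, and other rows as genes of more. This fitted 95.8% of 12397 genes, against 57.4% to 58.1% for rows 1 or 2 places away. Within 50 ranks of Hmgcs1 and the other genes chosen by name, it fitted 92.1% (Cyp51) to 100% (Sc5d). These chosen genes have 2 to 7 transcripts each, so any row with more decimals would pass for them. The check therefore does not fix the row of a single chosen gene.

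Rows were kept with an FPKM of at least 1 in at least 2 libraries. log2(FPKM + 1), which understates changes of low genes, was fitted with limma 3.58.1 (trend, R 4.3.3) and adjusted by Benjamini-Hochberg over 13089 rows. Copies were found with BLAST+ 2.17.0 (at least 95% identity over 100 bases). Genes and lists were chosen with earlier results of these data known. Named are the 8 genes, the 3 genes of highest mean FPKM per list, rows past the thresholds, the 5 closest profiles and Enpp7; others were named after their values were seen. Some genes of the lists are counted but not reported by name here.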

Additional observations from a re-analysis of the deposited data

How the results depend on the processing

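The 8 genes were refitted under up to 17 alternatives (pseudocounts, filters, scalings, array weights, each library left out, and, chosen after seeing the data, K82S and W89S left out together and pseudogene copies added). The 3 filter alternatives leave each fold change as it is. In the 106 other pairs of gene and alternative, 80 kept the direction and 26 turned it. Over all 130 pairs 0 passed the thresholds, and adjusted p-values ran from 0.214 to 0.999 (limma). Rows past the thresholds were 1 without a filter and at limits of 0.5 and 2 FPKM, 0 at pseudocounts of 0.1 and 0.01, 2 with array weights, 3 without both K82S and W89S, and 0 to 1184 with 1 library left out: 1184 without K82S, 1 without W89S, and 0 without K79S, K86S, W83S or W90S. Equal library sums moved the median of all rows by 0.14 and put all 8 genes above 0, with Fdps at 0.064, Cyp51 at 0.070 and Srebf2 at 0.12. Median centring gave Srebf2 0.022, and quantile normalization gave Cyp51 0.0041 and Srebf2 0.034. Array weights, lowest for K82S at 0.302, gave Hmgcs1 -0.069 and Insig1 -0.027. Without both K82S and W89S, Hmgcs1 was -0.14, Insig1 -0.095 and Srebf2 0.055. Genes of the 8 with no overlap numbered 1 under each of the 3 scalings (Sc5d, higher, when 19.6% to 20.2% of all rows had none), 1 without both K82S and W89S (Cyp51, lower, when 57.8% had none), and 0 to 1 with 1 library left out (Cyp51 lower without K82S, when 44.2% had none, and Sc5d higher without K79S, when 22.6% had none). With 1 library left out, the ranges were -0.51 to 0.72 for Hmgcs1, -0.37 to 0.90 for Idi1, -0.69 to 0.35 for Fdps, -0.23 to 1.22 for Sqle, -0.85 to 0.42 for Cyp51, -0.0024 to 0.10 for Sc5d, -0.16 to 0.34 for Insig1 and -0.18 to 0.16 for Srebf2. The median of the 8 genes, 0.09, ran from -0.22 without K82S to 0.38 without K86S, and that of the other enzymes, also 0.09, from -0.35 to 0.36 without the same libraries. The cause of the turned directions was not tested. No paired analysis was possible because the series speaks of pairs of mice but no label says which mice form a pair. How depth limits the values was not examined, since FPKM holds no counts.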
